A study of Mus musculus with 4 samples.

Results

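A set of 10 genes that lung macrophages and other myeloid cells express abundantly was read out in purified group 2 innate lymphoid cells (ILC2s): Lyz2, Lyz1, Chil3, Marco, Mrc1, Ear2, Fcgr3, Fcer1g, Il1b and Clec4d. They were chosen by symbol, with their FPKM values (fragments scaled to transcript length and to all mapped fragments) in these libraries already known, and all 10 have a row among the 55401 gene models. Their levels are therefore given as a description. The cells were lung ILC2s of C57BL/6 mice, purified and stimulated for 6 h with IL-33, an epithelial alarmin that activates ILC2s, or with IL-33 plus the peptide hormone angiotensin II (Ang II). Each condition has 2 libraries, made from 500 cells by cDNA amplification, and the series title concerns the effect of Ang II on ILC2 responses. The labels give neither the age or number of the mice nor how the cells were purified, and no group lacks IL-33.

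Macrophages, monocytes and neutrophils share a set of genes for killing and sensing microbes that lymphocytes express little or not at all. Lysozyme breaks bacterial cell walls, scavenger and mannose receptors bind particles, and Fc receptors couple antibody to the cell's kinases through the common signalling chain FcRγ. Alveolar macrophages, the resident phagocytes of the airspaces, are known for Marco, Chil3, Ear2 and Mrc1, and lysozyme M is one of their most abundant transcripts. The γ chain is less restricted, since mast cells, NK cells and some other lymphoid cells use it too.

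The libraries differ in how far they can be compared. The FPKM sum was 394808 to 431014 per library, with 12028 to 13401 gene models above 0, and the read depth is unknown. For genes whose FPKM multiplied by length in kilobases lay from 1 to 32, the spread of the IL-33 pair was 0.829 times counting noise and that of the Ang II pair 12.9 times. The IL-33 spread in that range was thus smaller than the estimated sampling noise. For genes at 32 or more on that scale it was 1.13 times the noise, so it was not smaller there. The noise itself rests on a depth estimated from the same IL-33 pair and is no independent measure. The pair entered the tests as 1 sample, a choice that these values do not settle. Results with the pair taken as separate replicates are given below. Of 15 ILC2 identity genes, 12 or 13 were at 1 FPKM or more in each library, Gata3 (104.03 to 185.24 FPKM) and Rora (58.77 to 74.40 FPKM) among them. The ILC2 cytokine gene Il5 was listed at 0 in all 4 libraries and Thy1 did not exceed 0.09 FPKM.

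Lyz1 and Lyz2 are neighbouring lysozyme genes on the minus strand of chromosome 10 in mm10, Lyz1 at 117287797 to 117292868 and Lyz2 at 117277331 to 117282321. Their coding sequences (GENCODE M21, GRCm38) are both 447 bases long and differ at 22 positions, with a longest identical run of 118 bases. Bases 1 to 300 of each are shown, a stretch with 20 of the 22 differences, because within the coding part only such differing bases can tell the copies apart. Capitals mark the bases that differ.
Lyz2: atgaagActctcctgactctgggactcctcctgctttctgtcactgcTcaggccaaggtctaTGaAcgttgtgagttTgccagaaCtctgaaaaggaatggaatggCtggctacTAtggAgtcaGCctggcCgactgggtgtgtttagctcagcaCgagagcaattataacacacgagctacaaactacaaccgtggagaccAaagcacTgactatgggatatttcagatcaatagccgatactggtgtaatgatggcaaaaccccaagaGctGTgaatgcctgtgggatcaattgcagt
Lyz1: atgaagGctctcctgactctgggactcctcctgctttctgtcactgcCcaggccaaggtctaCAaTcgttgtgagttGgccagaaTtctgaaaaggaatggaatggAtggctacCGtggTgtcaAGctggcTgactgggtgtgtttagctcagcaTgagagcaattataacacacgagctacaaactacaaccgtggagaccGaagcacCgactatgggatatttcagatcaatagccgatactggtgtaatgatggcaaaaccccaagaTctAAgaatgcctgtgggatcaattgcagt
Ear2 (chromosome 14, 44102654 to 44103534, plus strand) encodes an eosinophil-associated ribonuclease and belongs to a family of near-copies. Its 471 coding bases differ from those of Ear10 at 14 positions, with a longest identical run of 185 bases. Bases 6 to 305, with 9 of these positions, are shown for the same reason and with the same use of capitals.
Ear2: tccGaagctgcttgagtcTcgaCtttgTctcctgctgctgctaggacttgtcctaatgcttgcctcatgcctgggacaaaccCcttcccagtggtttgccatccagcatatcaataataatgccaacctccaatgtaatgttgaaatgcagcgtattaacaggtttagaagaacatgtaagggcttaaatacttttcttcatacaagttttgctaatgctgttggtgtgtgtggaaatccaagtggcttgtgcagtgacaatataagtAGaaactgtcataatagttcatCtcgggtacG
Ear10: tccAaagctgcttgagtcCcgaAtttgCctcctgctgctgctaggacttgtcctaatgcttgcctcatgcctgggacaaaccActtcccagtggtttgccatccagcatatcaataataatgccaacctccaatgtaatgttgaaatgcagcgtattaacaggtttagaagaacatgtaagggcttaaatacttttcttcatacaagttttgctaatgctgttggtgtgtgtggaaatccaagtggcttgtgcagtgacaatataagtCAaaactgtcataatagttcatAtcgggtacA
Reads inside the identical runs cannot be placed on 1 copy by sequence, so the values of these pairs carry an uncertainty that FPKM does not show. How the authors treated such reads is not given in the sources used here.

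**Figure D1:**
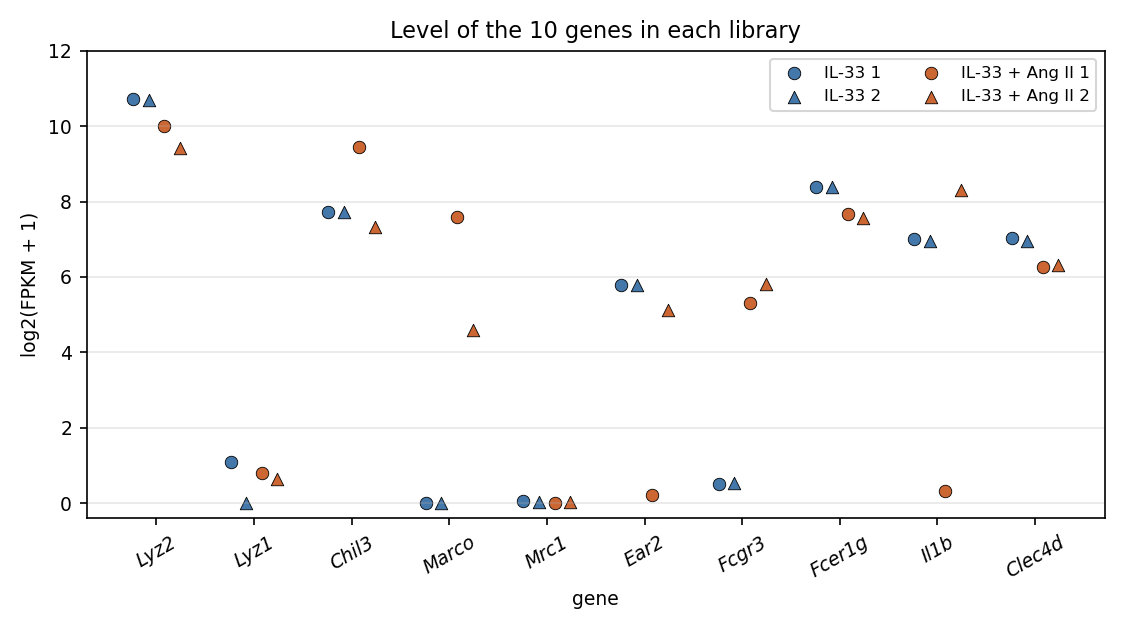
Level of each of the 10 genes, as log2(FPKM + 1), in the 2 IL-33 libraries (blue) and the 2 IL-33 plus Ang II libraries (orange); circles are replicate 1 and triangles replicate 2. The IL-33 points of a gene nearly coincide, apart from Lyz1, while the Ang II points of Il1b, Ear2 and Marco lie far apart.

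Lysozyme dominated the group. Lyz2, which encodes lysozyme M, was measured at 1699.64 and 1667.86 FPKM under IL-33 alone, against 1016.42 and 683.26 FPKM when Ang II was added. Both Ang II values lie below both IL-33 values, and the mean with Ang II was 849.8 ± 236 FPKM (SD, n = 2), 0.505 times the IL-33 mean. The log2 difference was -1.01 (SE 0.39) and did not pass (limma adjusted p = 0.61 over all genes tested). By FPKM, Lyz2 ranked 25 among all gene models under IL-33 alone, in each library, and 45 and 67 when Ang II was added. Lyz1, which encodes lysozyme P of the intestinal Paneth cell, stood at 1.12 and 0 FPKM under IL-33 alone, against 0.75 and 0.57 FPKM when Ang II was added. It was at most 0.0834 FPKM per 100 FPKM of Lyz2 in any library, so of the 2 copies the tables assign nearly everything to Lyz2. Its mean was below the 1 FPKM that the gene test required.

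The 2 macrophage secretory genes differed between the Ang II libraries by more than between the groups. Chil3 (chromosome 3, 106147554 to 106167564, minus strand) encodes the chitinase-like protein Ym1, which alveolar macrophages secrete and which can crystallise in the lung. It stood at 211.78 and 209.69 FPKM under IL-33 alone, against 696.28 and 158.00 FPKM when Ang II was added. One Ang II library was above both IL-33 libraries and the other below them (log2 difference 0.65, SE 1.38, limma adjusted p = 0.849). Without Ang II replicate 1 the difference was -0.41, and without replicate 2 it was 1.72. The coding sequences of Chil3 and its near-copy Chil4 are 94.4% identical, and Chil4 did not exceed 0.04 FPKM. Ear2 stood at 54.46 and 54.42 FPKM with IL-33, at 0.16 FPKM in Ang II replicate 1 and at 33.90 FPKM in replicate 2. Both Ang II values lay below the IL-33 values, but they differed 212-fold from each other (log2 difference -3.12, SE 3.19, limma adjusted p = 0.775). Its copies were listed near 0, with Ear10 at 0.25 and 0.23 FPKM with IL-33 and 0 listed in both Ang II libraries, and Ear1 listed at 0 in all 4.

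Of the 2 uptake receptors, 1 was listed above 0 in the Ang II libraries only and the other was listed near 0 in all 4 libraries. Marco (chromosome 1, 120474538 to 120505024, minus strand) encodes a scavenger receptor by which alveolar macrophages bind inhaled particles and bacteria. It was listed at 0 under IL-33 alone in each library, while the Ang II libraries held 191.15 and 23.19 FPKM, which differ 8.24-fold (limma adjusted p = 0.534). No fold is given against a group listed at 0. Mrc1 (chromosome 2, 14229392 to 14332057, plus strand), which encodes the mannose receptor CD206, was at 0.04 and 0.03 FPKM under IL-33 alone, against 0.01 and 0.03 FPKM when Ang II was added. A value at or near 0 in these files is not read as absence, since genes that every cell uses are listed there too. Tomm40, a subunit gene of the mitochondrial import pore, stood at 0.01, 0, 0.02 and 11.21 FPKM over the 4 libraries, and the proteasome gene Psmd2 at 45.03, 42.13, 0 and 69.77 FPKM. Tomm40 and Psmd2 are 2 chosen examples. What the zeros of Marco and the low values of Mrc1 mean for which cells the 10 transcripts came from was not tested.

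The Fc receptor genes parted. Fcer1g (chromosome 1, 171229572 to 171234365, minus strand) encodes FcRγ, the chain through which several Fc receptors and lectins signal. It stood at 336.34 and 334.22 FPKM under IL-33 alone, against 200.99 and 189.61 FPKM when Ang II was added. The groups do not overlap, and the Ang II libraries differed by 1.06-fold, the closest pair after that of Clec4d among the 8 genes tested. The mean with Ang II was 195.3 ± 8.05 FPKM (SD, n = 2), 0.582 times that with IL-33 (log2 difference -0.78, SE 0.18, limma adjusted p = 0.402). Fcgr3 (chromosome 1, 171051174 to 171064935, minus strand), the gene of the activating receptor FcγRIII that pairs with this chain, went the other way. It stood at 0.43 and 0.46 FPKM under IL-33 alone, against 38.67 and 55.51 FPKM when Ang II was added. On the log2(FPKM + 1) scale, which understates changes of low genes, the difference was 5.03 (SE 0.56, unadjusted p = 0.0164, limma adjusted p = 0.176). Fcgr3 thus had the smallest p of the 8 genes tested and did not pass.

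When the IL-33 pair was instead taken as 2 replicates, limma put 2 of the genes under 0.05, Fcgr3 (adjusted p = 0.00664) and Fcer1g (adjusted p = 0.0252). That setting takes the near-identical IL-33 libraries as separate samples, and with it 5.34% of genes were called higher and 13% lower. With the replicate block added, these values were 0.106 and 0.201, so neither gene passed. The block uses up a residual degree of freedom and is therefore no separate check on these 2 genes. The deviations of libraries that share a number had a correlation of -0.018. With IL-33 libraries that differ by about counting noise, that value cannot show a pairing or its absence.

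A pair of genes of inflammatory sensing completed the group. Clec4d (chromosome 6, 123262111 to 123275265, plus strand) encodes the C-type lectin MCL, a myeloid receptor for mycobacterial glycolipid that signals through FcRγ. It stood at 131.11 and 123.91 FPKM under IL-33 alone, against 76.31 and 78.64 FPKM when Ang II was added. The groups do not overlap, and the mean with Ang II was 77.47 ± 1.65 FPKM (SD, n = 2), 0.608 times the IL-33 mean (log2 difference -0.71, SE 0.23, limma adjusted p = 0.539). Il1b (chromosome 2, 129364570 to 129371139, minus strand) encodes the inflammatory cytokine IL-1β. It stood at 126.75 and 122.14 FPKM with IL-33, at 0.26 FPKM in Ang II replicate 1 and at 314.75 FPKM in replicate 2. The IL-33 values lie between the Ang II values, which differed 1210-fold (log2 difference -2.65, SE 5.13, limma adjusted p = 0.836). Without Ang II replicate 1 the difference was 1.33, and without replicate 2 it was -6.64. The antisense gene Il1bos, which overlaps Il1b, did not exceed 0.03 FPKM.

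Of the 10 genes, 8 had a mean of at least 1 FPKM and were tested; Lyz1 and Mrc1 were not. Among the 8, Marco and Fcgr3 were higher in both Ang II libraries than in both IL-33 libraries, where 24.4% of all 9215 genes tested were. Lyz2, Fcer1g, Clec4d and Ear2 were lower in both, where 33.5% of all genes tested were. Chil3 and Il1b were in neither class. With each library scaled to the median ratio the counts were again 2 and 4 (backgrounds 26.6% and 31.3%), as they were when scaled without haemoglobin genes (24.7% and 33.6%). Without Ang II replicate 1 they were 3 and 5 (45.7% and 46.1%), and without replicate 2 likewise 3 and 5 (41.9% and 46.6%). When a gap of at least 2-fold between the nearest libraries was required, the higher genes numbered 2 (background 8.81%) and the lower genes 0 (background 17.3%). The median log2 difference was -0.74 over the 8 tested genes and -0.00 over all genes tested. No gene of the 9215 passed the adjusted threshold of 0.05 by limma, 0.00% in either direction, and at an unadjusted p under 0.05 the fit gave 2.79% of genes higher and 10.8% lower. The smallest adjusted p of any gene was 0.174, in a fit with 1 residual degree of freedom. In bulk RNA, fewer cells of a type and less RNA per cell cannot be told apart.

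**Figure D2:**
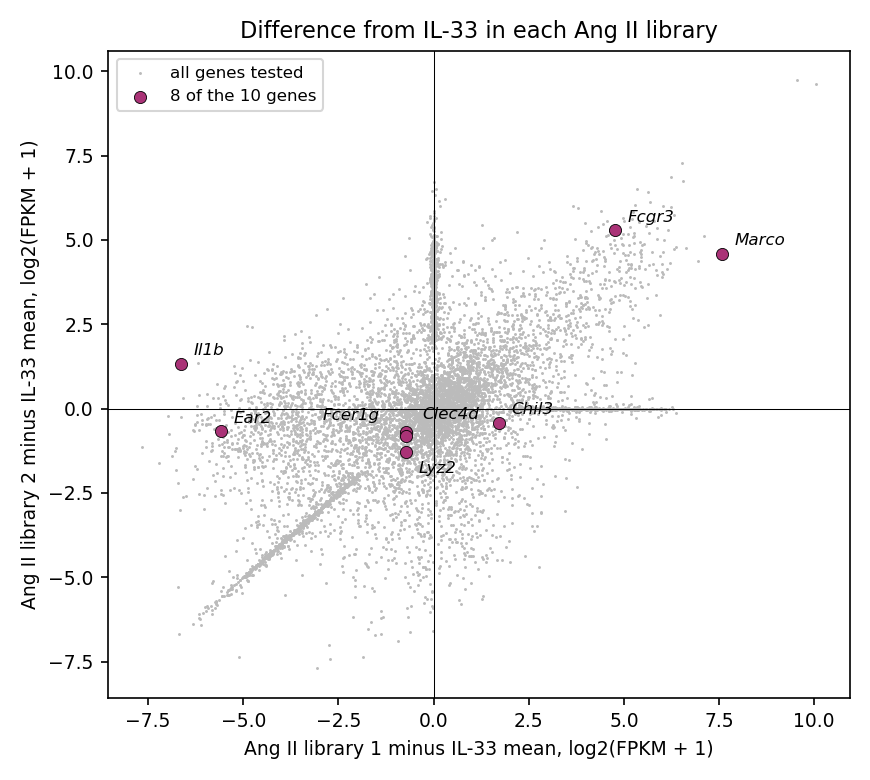
Difference from the IL-33 libraries, in log2(FPKM + 1), in Ang II replicate 1 (horizontal) and replicate 2 (vertical), for all 9215 genes tested (grey) and the 8 tested members (purple). Lyz2, Fcer1g and Clec4d lie close together at -0.73 to -0.74 horizontally, Marco and Fcgr3 lie in the upper right, and Il1b and Ear2 are far below 0 in replicate 1 only.

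Several of the genes were near 0 in a library and abundant in another. Marco, Il1b, Fcgr3 and Ear2 were below 1 FPKM in at least 1 library and at 20 FPKM or more in another, 4 of the 8 tested, against 14.9% of all genes tested. Within the Ang II pair this held for Il1b and Ear2, against 7.87% of all genes tested. Both were the low ones in Ang II replicate 1. Between the IL-33 libraries it held for none of the 10, and for 0.0217% of all genes tested.

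The levels were ordered alike in the IL-33 libraries down to the sixth gene, as Lyz2, Fcer1g, Chil3, Clec4d, Il1b and Ear2. Clec4d (123.91 to 131.11 FPKM) and Il1b (122.14 to 126.75 FPKM) overlapped there, while the other neighbours in that order did not. The remaining 4 genes were at 1.12 FPKM or below. With Ang II, Lyz2 led in both libraries and the next places differed. Chil3, Fcer1g and Marco followed in replicate 1, and Il1b, Fcer1g and Chil3 in replicate 2. Several Ang II ranges overlapped. That of Chil3 (158.00 to 696.28 FPKM) reached that of Lyz2 and held that of Fcer1g. That of Il1b (0.26 to 314.75 FPKM) held those of Fcer1g, Marco, Clec4d and Fcgr3, and that of Marco (23.19 to 191.15 FPKM) held those of Clec4d and Fcgr3 and reached those of Fcer1g, Chil3 and Ear2.

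Summed, the 10 genes made up 0.594% and 0.583% of all FPKM under IL-33 alone, against 0.521% and 0.389% when Ang II was added. Lyz2 held 66.3% and 66.4% of that summed level with IL-33 and 45.8% and 44.4% with Ang II. Chil3 held 31.3% in Ang II replicate 1 and Il1b 20.5% in replicate 2, against at most 8.35% and 4.95% with IL-33. Without Lyz2 the share was 0.2% and 0.196% with IL-33 and 0.283% and 0.216% with Ang II, so the order of the groups turned.

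**Figure D3:**
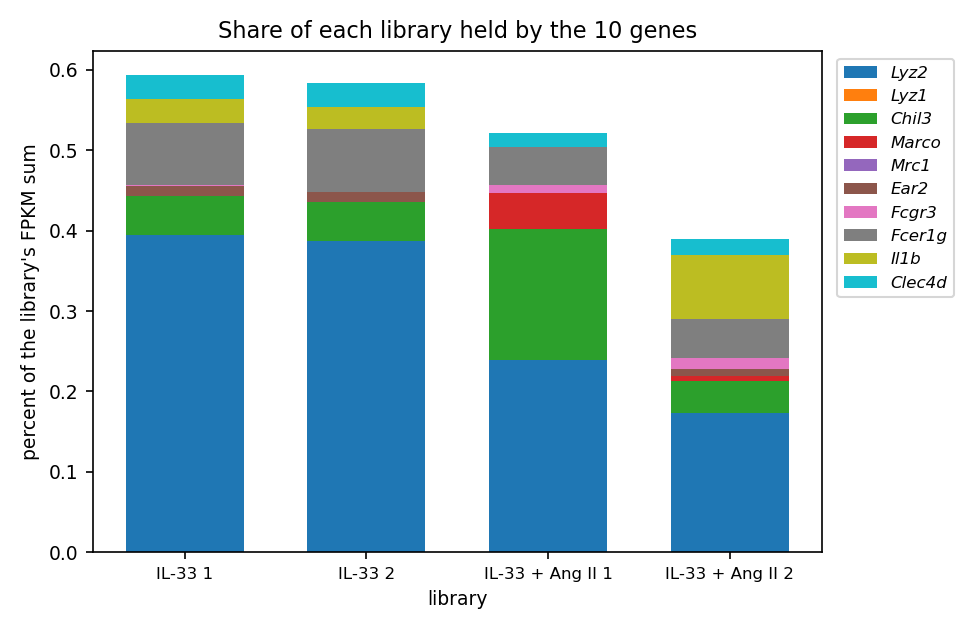
Percent of each library's FPKM sum held by the 10 genes, stacked by gene, in the 4 libraries. The bars reach 0.594%, 0.583%, 0.521% and 0.389%, and the Lyz2 part is the largest in each.

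Set against Lyz2 in the same library, Fcer1g was at 19.8 and 20 FPKM per 100 FPKM of Lyz2 with IL-33 and at 19.8 and 27.8 with Ang II. Clec4d was at 7.71 and 7.43, and at 7.51 and 11.5 with Ang II. Relative to Lyz2, both were thus at about the IL-33 level in 1 of the 2 Ang II libraries and above it in the other. Chil3 was at 12.5 and 12.6 with IL-33 and 68.5 and 23.1 with Ang II. Il1b ran from 0.0256 in Ang II replicate 1 to 46.1 in replicate 2, with 7.46 and 7.32 in the IL-33 libraries.

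**Figure D4:**
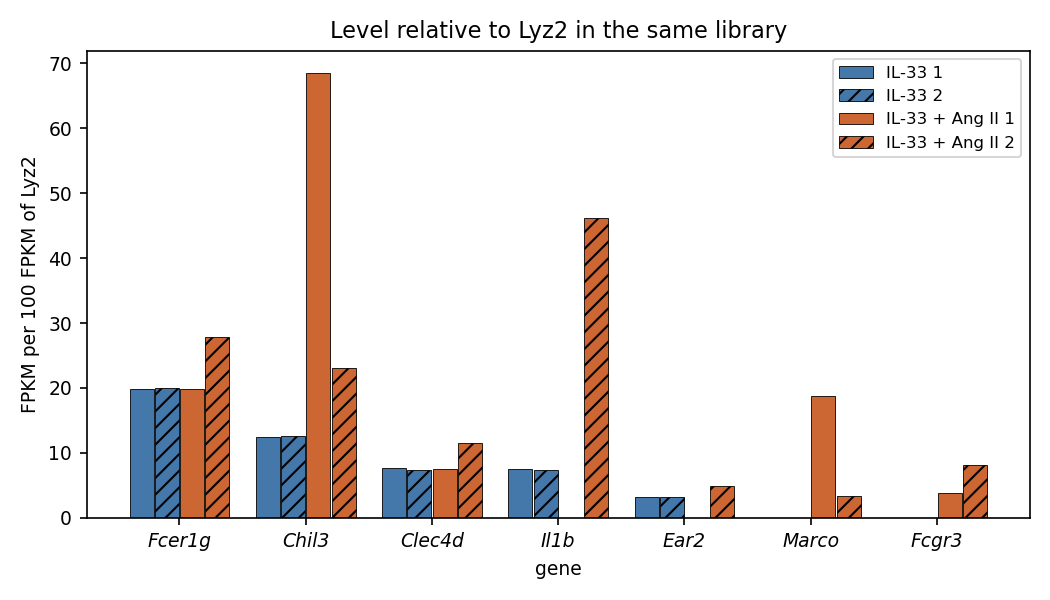
FPKM of 7 genes per 100 FPKM of Lyz2 in the same library, with IL-33 in blue, IL-33 plus Ang II in orange and replicate 2 hatched. Fcer1g and Clec4d have bars of similar height for IL-33 and Ang II replicate 1 and higher ones in Ang II replicate 2, while Chil3 reaches 68.5 in Ang II replicate 1 and Il1b 46.1 in replicate 2.

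The genes whose pattern over the 4 libraries was closest to that of Lyz2 were Lgals3, Nipa2 and S100a9. Likeness was the root mean square distance of centred log2(FPKM + 1) over the 5729 genes averaging 5 FPKM or more, and since the IL-33 libraries nearly coincide it rests on few independent points. Lgals3, which encodes galectin-3, a lectin abundant in macrophages, stood at 687.13 and 677.35 FPKM under IL-33 alone, against 419.90 and 277.99 FPKM when Ang II was added (distance 0.012). Nipa2 stood at 16.45 and 15.69 FPKM and at 9.26 and 6.17 FPKM (distance 0.026). S100a9, which encodes a subunit of the neutrophil protein calprotectin, stood at 42.03 and 40.51 FPKM and at 24.22 and 16.87 FPKM (distance 0.03). Closest to Chil3 were 0610012G03Rik, Zpr1 and Uimc1 (distances 0.053 to 0.074), and closest to Marco were Triap1, Gimap9 and the small nucleolar RNA gene Snora24 (0.281 to 0.439).

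Further genes of these pathways were read from lists. Among 12 Fc receptor, adaptor and kinase genes, 7 were tested, 2 above and 5 below the IL-33 range in both Ang II libraries, and 0 passed (smallest limma adjusted p = 0.174). The shares over all genes tested were 24.4% above and 33.5% below. Tyrobp, which encodes DAP12, an adaptor related to FcRγ, stood at 229.14 and 227.75 FPKM under IL-33 alone, against 168.65 and 46.23 FPKM when Ang II was added. Lyn, a Src family kinase gene, stood at 2.84 and 2.61 FPKM against 52.27 and 17.34 FPKM. Hcst, which encodes the adaptor DAP10, stood at 79.83 and 75.26 FPKM under IL-33 alone, against 0.15 and 56.38 FPKM when Ang II was added. Syk, the kinase that binds FcRγ, did not exceed 0.16 FPKM, and Fcer1a and Ms4a2, the other chains of the high-affinity IgE receptor, were listed at 0 in all 4 libraries.

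Of 10 lectin and CARD9 pathway genes, 5 were tested; 1 lay above and 3 below the IL-33 range in both Ang II libraries, and 0 passed by limma. Among all genes tested 24.4% lay above and 33.5% below. Clec4n, which encodes Dectin-2 and lies in the lectin gene cluster of Clec4d, stood at 141.09 and 139.61 FPKM under IL-33 alone, against 82.32 and 104.34 FPKM when Ang II was added. Clec4e, the gene of Mincle, with which MCL pairs, stood at 44.77 and 32.25 FPKM against 27.48 and 10.72 FPKM. Both were lower in each Ang II library, as Clec4d was. Clec7a, which encodes Dectin-1, stood at 55.31 and 51.41 FPKM with IL-33, at 51.50 FPKM in Ang II replicate 1 and at 0.29 FPKM in replicate 2. Bcl10, the gene above the range, stood at 0.05 and 0 FPKM under IL-33 alone, against 24.31 and 6.86 FPKM when Ang II was added. Card9 and Malt1 did not exceed 0.06 FPKM. Clec4d is only 54.6% identical to Clec4n and 51.5% to Clec4e in coding sequence, with identical runs of at most 10 bases.

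Of 13 IL-1 family and inflammasome genes, 8 were tested; in both Ang II libraries 0 stood higher (24.4% of all genes tested) and 2 lower (33.5% of all genes tested), and the list's median log2 difference was 0.01. Il1a, which encodes IL-1α, stood at 132.71 and 131.88 FPKM under IL-33 alone, against 0.20 and 55.08 FPKM when Ang II was added. It was near 0 in the same Ang II library as Il1b. Casp1, the gene of the protease that cleaves pro-IL-1β, stood at 17.39 and 15.84 FPKM against 15.31 and 18.26 FPKM. Nlrp3, a sensor gene of the inflammasome, did not exceed 0.03 FPKM. Of 10 scavenger and mannose receptor relatives, 1 was tested: Cd36, at 17.89 and 18.18 FPKM under IL-33 alone, against 0.11 and 24.18 FPKM when Ang II was added. Msr1, which like Marco encodes a class A scavenger receptor, was listed at 0 in all 4 libraries. Of 15 chitinase-like and ribonuclease family symbols, 9 matched a row and 1 was tested, Chil1, at 32.72 and 35.10 FPKM under IL-33 alone, against 0.27 and 0.14 FPKM when Ang II was added.

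Of 10 myeloid transcription factor genes, 7 were tested, with 4 above and 1 below the IL-33 range in both Ang II libraries, where 24.4% and 33.5% of all genes tested lay. Spi1, which encodes PU.1, the master regulator of macrophages, stood at 48.07 and 49.52 FPKM under IL-33 alone, against 0.15 and 23.90 FPKM when Ang II was added. Pparg, which alveolar macrophages need and ILC2s also express, stood at 17.50 and 16.55 FPKM against 65.56 and 65.10 FPKM (log2 difference 1.88, SE 0.30, limma adjusted p = 0.272). Cebpb stood at 23.37 and 26.94 FPKM under IL-33 alone, against 282.98 and 2.19 FPKM when Ang II was added, and Irf8 at 7.24 and 6.54 FPKM against 12.38 and 24.27 FPKM.

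Marker lists of other cell types were read beside the 10 genes. Of 17 further alveolar macrophage genes, 10 were tested, 1 above and 7 below the IL-33 range in both Ang II libraries, and their summed level was 523 to 524 FPKM with IL-33 and 402 and 233 FPKM with Ang II. The most abundant were the cathepsin K gene Ctsk (166.93 and 166.03 against 131.49 and 77.47 FPKM) and Cd68 (150.37 and 150.16 against 130.22 and 51.63 FPKM). Over all genes tested, 24.4% lay above and 33.5% below. Other genes of the list with values under IL-33 were Plet1 (73.56 and 74.44 against 0.07 and 0 FPKM), Atp6v0d2 (42.19 and 41.11 against 43.12 and 9.73 FPKM), Fabp5 (30.96 and 30.66 against 0.65 and 25.09 FPKM) and Car4 (16.25 and 18.13 against 30.90 and 0.04 FPKM). Lpl, Krt79 and Fabp4 stood between 6.64 and 10.01 FPKM under IL-33 alone. When Ang II was added they stood at 0.01 and 2.72 FPKM (Lpl), 0.01 and 0.07 FPKM (Krt79) and 0.03 and 0.01 FPKM (Fabp4). Itgax, Fabp1, Ear1, Cidec and Msr1 were listed at 0 in all 4 libraries, and Siglecf at 0 in 3 and 0.03 FPKM in the other. Of 20 monocyte and interstitial macrophage genes, 6 were tested, with 3 above and 3 below the IL-33 range, beside the same shares over all genes. Their sum was 231 and 232 FPKM with IL-33 and 45.7 and 84.7 FPKM with Ang II. Cd14, the most abundant, stood at 151.59 and 151.80 FPKM against 0.51 and 18.18 FPKM, and Ccr2 at 21.81 and 21.90 against 28.55 and 33.51 FPKM. Ms4a6c (32.27 and 34.08 against 0.07 and 14.31 FPKM) and Adgre1 (24.19 and 23.55 against 0.06 and 0.04 FPKM) were lower with Ang II. Apoe (0.25 and 0.50 against 15.58 and 5.50 FPKM) was higher. Fcgr1 (0.02 and 0 against 0.03 and 11.95 FPKM) was counted as higher too. Its value in Ang II replicate 1 was near 0 and barely above those with IL-33. The other 14 genes were below 1 FPKM in all 4 libraries, and the macrophage growth factor receptor gene Csf1r did not exceed 0.13 FPKM. C1qb and Ms4a7 were listed at 0 in all 4.

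Of 16 neutrophil genes, 4 were tested; 0 lay above and 4 below the IL-33 range in both Ang II libraries (24.4% and 33.5% of all genes tested), and the list summed to 225 to 227 FPKM with IL-33 and 65.4 and 42.7 FPKM with Ang II. S100a8, the partner of S100a9 in calprotectin, stood at 163.08 and 157.00 FPKM against 34.19 and 18.91 FPKM, and Mpo and Elane were listed at 0 throughout. Of the 16 genes, 11 were below 1 FPKM in all 4 libraries, Ly6g (at most 0.28 FPKM) and Csf3r (at most 0.43 FPKM) among them. Dendritic cell genes (2 tested, 1 higher and 1 lower, beside the same 24.4% and 33.5%) summed to 3.49 to 16.8 FPKM. Xcr1 stood at 2.38 and 2.57 FPKM under IL-33 alone, against 16.83 and 3.48 FPKM when Ang II was added. Batf3 stood at 10.84 and 10.29 against 0 and 0 FPKM. Eosinophil genes summed to at most 0.39 FPKM. Flt3, Clec9a, Cd209a, Prg2, Epx and Ccr3 were listed at 0 in all 4 libraries. T cell genes (0 of 8 tested higher and 8 lower, beside the same 24.4% and 33.5%) summed to 1245 and 1239 FPKM with IL-33 and 926 and 456 FPKM with Ang II. Epithelial genes summed to 388 and 378 FPKM against 80.1 and 206 FPKM. Red blood cell genes took 5.83% and 5.79% of the FPKM sum against 0.899% and 0.403%, while ILC2 identity genes took 0.553% and 0.558% against 0.631% and 0.606%. Of 10 mast cell and basophil genes, 2 were tested. Hdc, which encodes the enzyme that makes histamine, stood at 0.14 and 0.06 FPKM under IL-33 alone, against 28.43 and 26.04 FPKM when Ang II was added (log2 difference 4.68, SE 0.56, limma adjusted p = 0.191), and Fcer1a, Ms4a2, Cma1 and Mcpt4 were listed at 0. For the remaining lists the same shares over all genes apply. B cell genes (3 tested, 0 higher and 1 lower) summed to 8.14 to 97.9 FPKM per library, NK cell genes (2 tested, 0 and 1) to 0.09 to 31 FPKM, endothelial genes (2 tested, 0 and 1) to 0.16 to 30.7 FPKM and fibroblast genes (1 tested, in neither class) to 1.38 to 2.11 FPKM. The part of these cell types in the values of the 10 genes was not tested.

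**Figure D5:**
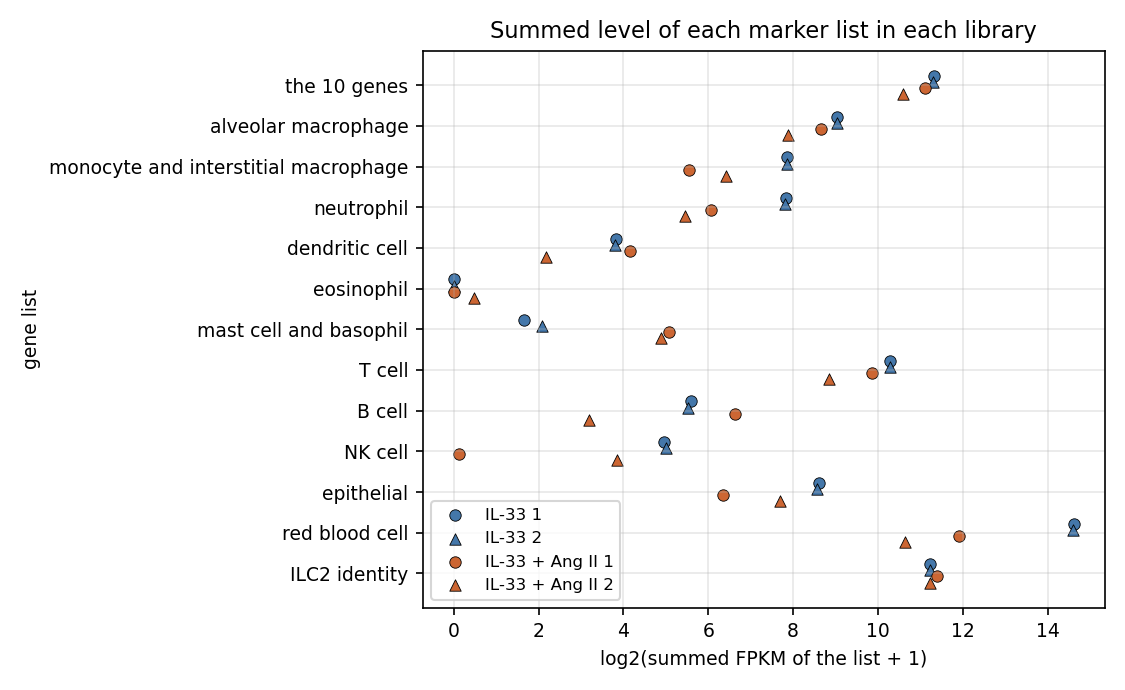
Summed FPKM of the 10 genes and of each marker list, as log2(sum + 1), in the IL-33 libraries (blue) and IL-33 plus Ang II libraries (orange); circles are replicate 1 and triangles replicate 2. The alveolar macrophage, monocyte, neutrophil, T cell, epithelial and red blood cell lists lie lower in both Ang II libraries, and the eosinophil list lies at or near 0 in all 4.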

How the data were processed

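RNA-seq libraries of 500 purified lung ILC2s each were compared, 2 of each condition. The authors deposited FPKM per gene with 2 decimals, per the file headers; the submitters' processing notes name mm10, HISAT, StringTie and edgeR without role or version. FPKM are not counts, so no count model was used, and low values did not fall on whole reads (35.2% to 39% of low values of genes with 1 transcript lay within 0.15 of a whole number at the best of the steps scanned, against 30% for values without steps), so the depth per library is unknown. The number of fragments behind each IL-33 library was estimated at 15420000. The estimate used 2440 genes of 0.05 to 0.5 FPKM times kilobases, 508 of them at 0 in 1 library. It set the counting noise of both pairs, although the depth of the Ang II libraries is unknown. Above 32 FPKM times kilobases the IL-33 pair differed by 1.13 times that noise. The 9215 genes whose IL-33 mean and 2 Ang II values averaged 1 FPKM or more were tested on log2(FPKM + 1) with limma 3.58.1 in R 4.3.3 (two-sided, eBayes with trend, Benjamini-Hochberg over all genes, threshold 0.05), 1 sample against 2, with the lone IL-33 sample assumed to vary as the Ang II libraries do. The labels do not say that libraries came from separate mice, so p-values measure only how these samples differ among themselves, and that may be technical. The script was run on simulated data with a much smaller spread than that of the Ang II pair, which does not show what the fit would recover here. Coordinates and coding sequences come from GENCODE M21 (GRCm38, the assembly of mm10), to which 55141 of 55401 gene models matched by identifier; coding sequences were aligned with Biopython 1.88.

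The members, gene lists and tests were chosen with earlier results of these data known. The text names the 10 genes and the 2 most abundant genes of the alveolar macrophage, monocyte, neutrophil and dendritic cell lists. For the other marker lists the 2 most abundant genes were not both named. Defining genes listed at 0 were named for some lists. The text also names up to 4 genes of a pathway list, and the 3 nearest patterns to Lyz2, Chil3 and Marco. Syk, Nlrp3, Siglecf, Csf1r, Adgre1, Ms4a6c, Apoe, Fcgr1, Gata3, Rora, Thy1, Ear10 and Chil4 fall outside this. So do Tomm40, Psmd2, Plet1, Atp6v0d2, Fabp5, Car4, Lpl, Krt79, Fabp4, Ly6g, Csf3r, Card9 and Malt1. All of these were chosen after their values were seen. Alternatives were other pseudocounts, filters and scalings, both IL-33 libraries as replicates, a replicate block and leaving out each library. Leaving out single Ang II libraries from counts and shares was added after seeing the data.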

Additional observations from a re-analysis of the deposited data

How the results depend on the processing

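The count of genes passing the adjusted threshold was 0 in the main setting by limma and 0 under both other pseudocounts, both other filters, both other scalings, without either IL-33 library, and with the replicate block. It was 1665 with the IL-33 pair taken as 2 replicates and no replicate block. No count could be had without an Ang II library, which leaves no residual degrees of freedom. The deviations of libraries that share a number had a correlation across genes of -0.018. Because the IL-33 libraries differ by about counting noise, this value cannot show whether same-numbered libraries were paired. Adding the replicate block to that 2 against 2 fit moved the calls from 1665 to 0. The block also uses up a residual degree of freedom, so this move does not measure a pairing. Of the 8 tested genes, 2 changed direction, both without Ang II replicate 1: Chil3 to -0.41 and Il1b to 1.33, against 1.72 and -6.64 without replicate 2. The counts of the tested genes outside the other group were 3 higher and 5 lower without either Ang II library, against 2 and 4 with both, and the lower count was 0 when a 2-fold gap was required. The members' mean share of the FPKM sum was 0.589% with IL-33 and 0.455% with Ang II. With IL-33 it was 0.625% without haemoglobin genes, 0.62% without mitochondrially encoded genes and 0.198% without Lyz2. With Ang II it was 0.2495% without Lyz2, and from 0.389% to 0.521% without 1 library. Depth is unknown, so levels under 1 FPKM carry no interval.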
